A study of Mus musculus with 6 samples.

Results

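Small nuclear RNAs (snRNAs), small nucleolar RNAs (snoRNAs) and small Cajal body RNAs (scaRNAs) were examined in 6 mouse libraries of total RNA. Members were chosen by annotated gene type and by abundance: a gene had to be typed snoRNA, snRNA or scaRNA in GENCODE M21 and to hold at least 20 estimated counts in each of the 6 libraries. This rule left 211 of 2943 such genes (7.17%), out of 35856 genes of all types with a counted target. They comprised 152 snoRNAs, 48 snRNAs and 11 scaRNAs, with 193 distinct sequences among them. A further 1945 of the 2943 genes stood at 0 in every library. All 211 members passed the filter on low counts of the test used below, but since the abundance rule asked for counts in every library, a gene silent in any of them could not be a member.

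The series set cells labelled as Mdm2 deleted against vehicle controls in a p53-null background, with 1 library for each combination of 3 labelled cell types and 2 arms. Mdm2 encodes the ubiquitin ligase that restrains p53. The cells were fibroblasts from ear tissue of adult Mdm2 fl/fl p53-/- mice, and T cell lymphoma and sarcoma cells from tumours of such mice, kept in short-term culture. They had received a retrovirus for CreERT2 and GFP, or for GFP alone, and the labels do not say which vector each library carried. Cells then received 4-hydroxytamoxifen (4-OHT), which activates CreERT2, or ethanol (EtOH), for 6 h in the lymphoma and 48 h in the sarcoma and the fibroblasts. The arms are therefore written 4OHT and EtOH, and in every pair the labelled deletion and the 4-OHT exposure cannot be told apart. RNA was taken with TRIzol and made into libraries with a stranded total RNA kit after removal of ribosomal RNA. Such a kit does not size-select for small RNAs.

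snRNAs are the RNA cores of the spliceosome. U1 pairs with the 5′ splice site and U2 with the branch site of introns, while U11 and U12 do so for the rare minor introns. Box C/D snoRNAs guide 2′-O-methylation of ribosomal and other RNAs, box H/ACA snoRNAs guide pseudouridylation, and U3, U8 and the RNA of Snora73 (U17) instead take part in cleavage of the ribosomal RNA precursor. scaRNAs guide the same modifications on snRNAs inside Cajal bodies. In mammals most snoRNAs and scaRNAs are cut from introns of other genes, whereas snRNAs and U3 have promoters of their own.

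The sequences below show what separates the classes and which members carry the results. They were read from the GENCODE M21 transcripts on GRCm38 and are written as DNA, 5′ to 3′. Capitals mark the bases of U1 that pair with the 5′ splice site and the bases of U2 that pair with the branch site. The 2 U1 forms, on chromosome 11 (87422867 to 87423030, plus strand) and on chromosome 3 (96359953 to 96360117, minus strand), were 95.8% identical.
Rnu1a1: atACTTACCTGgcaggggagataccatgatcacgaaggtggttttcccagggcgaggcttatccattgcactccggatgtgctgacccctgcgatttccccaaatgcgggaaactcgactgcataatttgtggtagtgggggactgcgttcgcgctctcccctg
Rnu1b1: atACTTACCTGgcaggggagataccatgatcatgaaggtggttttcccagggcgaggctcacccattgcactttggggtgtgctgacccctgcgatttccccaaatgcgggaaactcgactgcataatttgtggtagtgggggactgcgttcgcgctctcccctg
Rnu2-10: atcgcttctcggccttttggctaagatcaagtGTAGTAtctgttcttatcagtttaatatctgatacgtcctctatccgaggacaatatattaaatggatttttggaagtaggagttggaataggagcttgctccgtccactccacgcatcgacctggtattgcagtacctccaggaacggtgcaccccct

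For the next 5, capitals mark the box C letters TGATGA where they lie within the first 20 bases and the box D letters CTGA within the last 15 bases. Snord12, Gm23201 and Gm25878 lie within 1 noncoding gene, Zfas1, on the plus strand of chromosome 2 (167065276 to 167065365, 167064998 to 167065086 and 167063473 to 167063565). Snord118 is the U8 RNA, on chromosome 11 (69073427 to 69073561, plus strand), and Snord17 lies within Snx5 on chromosome 2 (144265979 to 144266216, minus strand).
Snord12: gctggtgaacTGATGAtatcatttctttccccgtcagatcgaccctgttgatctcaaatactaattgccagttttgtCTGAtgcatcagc
Gm23201: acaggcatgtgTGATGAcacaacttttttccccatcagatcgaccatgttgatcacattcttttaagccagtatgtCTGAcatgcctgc
Gm25878: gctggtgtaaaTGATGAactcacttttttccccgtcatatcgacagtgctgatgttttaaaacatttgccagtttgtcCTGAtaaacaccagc
Snord118: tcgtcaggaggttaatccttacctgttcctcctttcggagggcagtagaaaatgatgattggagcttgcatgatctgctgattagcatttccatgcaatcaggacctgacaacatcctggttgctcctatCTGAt
Snord17: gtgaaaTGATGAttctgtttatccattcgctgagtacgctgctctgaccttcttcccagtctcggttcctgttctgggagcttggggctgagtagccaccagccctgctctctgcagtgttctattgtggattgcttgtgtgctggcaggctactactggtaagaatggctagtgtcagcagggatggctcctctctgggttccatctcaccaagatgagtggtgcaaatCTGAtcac

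In the box H/ACA members capitals mark the terminal ACA, which stands 3 bases before the end. Snora2b lies in Kansl2 on chromosome 15 (98526346 to 98526482, minus strand), Snora23 in Ipo7 on chromosome 7 (110046364 to 110046547, plus strand), and the scaRNA Gm22442 in Chd3 on chromosome 11 (69350518 to 69350661, minus strand).
Snora2b: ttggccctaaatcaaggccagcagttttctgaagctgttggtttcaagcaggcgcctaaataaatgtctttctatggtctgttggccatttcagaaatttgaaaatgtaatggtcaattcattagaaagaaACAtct
Snora23: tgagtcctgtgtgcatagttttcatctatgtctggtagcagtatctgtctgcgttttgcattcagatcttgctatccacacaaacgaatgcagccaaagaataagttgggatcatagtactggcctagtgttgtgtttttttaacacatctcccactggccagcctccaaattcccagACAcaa
Gm22442: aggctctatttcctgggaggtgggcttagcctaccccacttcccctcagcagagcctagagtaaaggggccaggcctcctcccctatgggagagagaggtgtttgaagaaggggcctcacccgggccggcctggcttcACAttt

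Both sets of box C and D letters, read on the strand of the gene, were found in 20 of the 32 Snord members and in none of the 34 Snora members. The terminal ACA was found in 28 of the 34 Snora members and in none of the Snord members. Among all 1507 snoRNA genes with a target, 20.2% held the box C and D letters and 18.3% the terminal ACA. The other 86 snoRNA members carried neither a Snord nor a Snora symbol. By these letters 16 of them were of the box C/D form, while 42 (48.8%) held the terminal ACA.

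Total estimated counts lay between 26243064 and 37517726 per library. The markers went against the T cell lymphoma label and did not tell the 3 labelled cell types apart: fibroblast markers such as Col1a1, Col1a2 and Pdgfra summed to between 7462 and 13602 CPM (counts scaled to library size) in all 6 libraries, and 9 T cell markers to between 1.96 and 4.73, with Cd3d, Cd3e and Cd247 at 0 throughout. The markers do not bear on whether the sarcoma label is right. Mdm2 RNA was not lower in the 4OHT libraries, at 28.0 to 31.1 CPM in all 6 (edgeR log2 fold change 0.13 ± 0.05 SE, adjusted p = 0.0539). Libraries are therefore called by their labels only. Within an arm, the fibroblast marker sum was 7462 to 7623 CPM in the 4OHT libraries and 13139 to 13602 in the EtOH libraries, with no overlap. The T cell sum was 3.72 to 4.73 and 1.96 to 2.26 CPM in the same order, and the sum of 4 macrophage markers 6.54 to 8.20 and 4.59 to 5.20, again with no overlap. Of the 8 fibroblast genes 7, all but Lum, reached 1 CPM in all 6 libraries. Of the 9 T cell genes only Lck did, and of the 4 macrophage genes only Cd68. The 5 skeletal muscle markers summed to between 0.101 and 0.413 CPM, with Myod1, Myog and Ckm at 0 throughout. Over all tested genes edgeR called 25.0% higher and 24.6% lower under 4OHT, so a difference between the arms is not particular to these markers. The marker sums moved with the arms, and their part in the differences below was not tested. In bulk RNA, fewer cells of a type and less RNA per cell cannot be told apart.

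The members held 0.668% of all estimated counts in the 4OHT library labelled fibroblasts and 0.689% in its EtOH partner. The pair labelled lymphoma held 0.855% and 0.794%, and the pair labelled sarcoma 1.42% and 0.908%. The 4OHT library labelled sarcoma thus stood above the other 5, which reached at most 0.908%. Both arms ran upwards from the library labelled fibroblasts to the one labelled sarcoma.

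snRNAs took the largest part of these counts and varied most. In the 4OHT and EtOH libraries they made up 0.346% and 0.354% in the pair labelled fibroblasts, 0.470% and 0.424% in the pair labelled lymphoma, and 0.856% and 0.496% in the pair labelled sarcoma. snoRNAs followed the same order at 0.285% and 0.293%, 0.352% and 0.331%, and 0.524% and 0.371%. The arms overlapped for both classes. The mean snRNA share was 0.557% ± 0.266 (SD, n = 3) under 4OHT and 0.425% ± 0.0709 (SD, n = 3) under EtOH, and the mean snoRNA share 0.387% ± 0.123 and 0.332% ± 0.0392. A two-sided exact permutation test within pairs gave p = 0.50 for both. With 3 pairs its smallest possible p is 0.25, so it could not show whether either difference exceeded the spread.

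Taken as a sum, scaRNAs went the other way. Their share was 0.0381% against 0.0418% in the pair labelled fibroblasts, 0.0333% against 0.0389% in the pair labelled lymphoma and 0.0374% against 0.0408% in the pair labelled sarcoma, lower under 4OHT in 3 of 3 pairs and with no overlap between the arms. The means were 0.0363% ± 0.00259 and 0.0405% ± 0.00146 (SD, n = 3 each). The exact permutation p was 0.25 within pairs and 0.10 unpaired, each the smallest that 3 libraries against 3 allow, so this design could not reach 0.05. The sum is weighted to abundant members: over the 11 scaRNAs the median edgeR log2 fold change was -0.06, with 5 above 0. Without the most abundant member the log2 ratio of mean shares was -0.12, beside -0.16 with it.

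**Figure D1:**
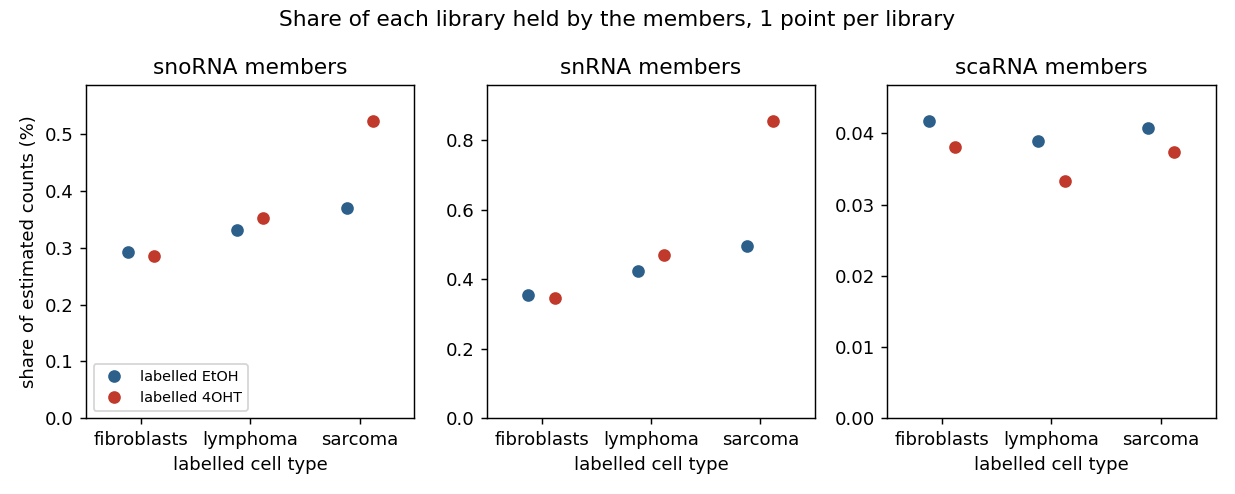
Share of all estimated counts (%, y axes from 0, scales differ between panels) held by snoRNA, snRNA and scaRNA members, with 1 point per library, in blue for EtOH and red for 4OHT. The 4OHT library labelled sarcoma stands highest for snoRNA (0.524%) and snRNA (0.856%), while the scaRNA share is lower under 4OHT in each of the 3 pairs.

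The high library was described by setting each member's CPM in 1 library against the mean of the other two libraries of the same arm, a comparison with no test that was chosen after the values were seen. In the 4OHT library labelled sarcoma, 90 of the 211 members (42.7%) were at least 1.5-fold over the mean of the other two, against 2.57% of all 15933 tested genes. In the EtOH library labelled sarcoma the count was 10 of 211 (4.74%), against 1.42% of all tested genes. The median ratio in the 4OHT library was 2.06 for snRNAs, of which 37 of 48 passed 1.5-fold, 1.36 for the Snora members, 1.07 for the Snord members and 1.08 for scaRNAs. The median over all tested genes was 1.00.

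The ratio differed by length. Members of up to 100 bases had medians of 0.993 (up to 80 bases) and 0.976 (over 80 bases) in the 4OHT library labelled sarcoma. The median was 1.39 over 100 and up to 130 bases, 1.46 up to 150 bases, 2.16 up to 200 bases, where most snRNAs lie, and 1.45 from 203 bases up. In the EtOH library labelled sarcoma the same bins ran from 0.973 to 1.23.

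Lengths of fragments and targets are given here as description, and their part in the ratios by length was not tested. The deposited target length exceeded the effective length that kallisto gives by 168 to 172 bases in every library, so most members were shorter than the fragments being sequenced. The effective length of targets as long as Rnu1a1 was 33.8 to 35.7, and that of targets of 90 bases 10.7 to 13.0. The 4OHT library labelled sarcoma had 34.5 and 10.7. TPM values, which divide by effective length, of short members thus rest on very small divisors. The remaining nuclear ribosomal RNA, which the kit removes, held 1.64% of counts in that library, beside 1.54% and 1.64% in the other two 4OHT libraries, and 2.92%, 0.634% and 0.202% in the EtOH libraries labelled fibroblasts, lymphoma and sarcoma. The part of RNA recovery, depletion or fragment length in the high snRNA share was not tested.

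**Figure D2:**
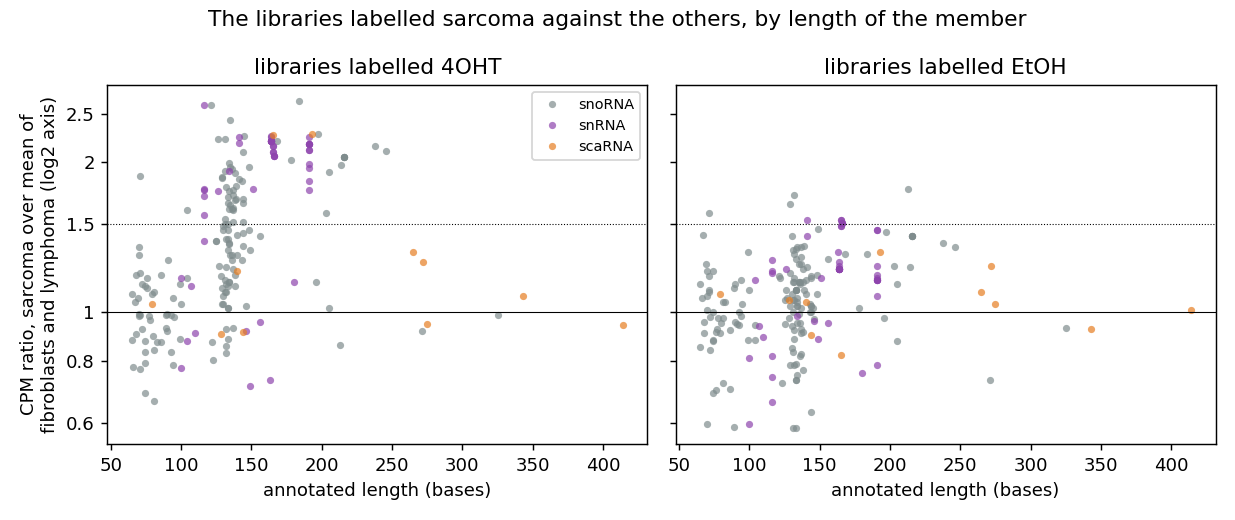
Ratio of CPM in the library labelled sarcoma to the mean of the libraries labelled fibroblasts and lymphoma (log2 axis) against annotated length in bases, with 1 point per member, for 4OHT (left) and EtOH (right). The dotted line marks 1.5-fold. Under 4OHT the snRNAs lie mostly near their median of 2.06, and members up to 100 bases lie around 1.

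Over the 3 pairs, edgeR's quasi-likelihood test with the labelled cell type as a block called 59 of 211 members higher (28.0%) and 10 lower (4.74%) under 4OHT at an adjusted p under 0.05. Of all 15933 tested genes it called 25.0% higher and 24.6% lower. The share of members called higher was thus near that of genes at large, while fewer members were called lower. The median log2 fold change was 0.26 over the members and 0.02 over all tested genes. Of the 59 higher calls, 39 had the same sign in all 3 pairs, and all 10 lower calls did.

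The higher calls leaned on the pair labelled sarcoma. Without it the same test called 21 members higher (9.95%) and 16 lower (7.58%), where it called 21.8% and 20.9% of all genes, and the median was 0.08 over the members and 0.00 over all genes. Of the 59 higher calls 18 were called again, and of the 10 lower calls 9 were. DESeq2 called 7 members higher and 7 lower (3.32% each), against 15.9% and 15.6% of all genes. Without the block, edgeR called 25 members higher and 8 lower, beside 3742 and 3772 of all genes.

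Within pairs, the median log2 ratio over the members was 0.00 in the pair labelled fibroblasts, 0.11 in the pair labelled lymphoma and 0.49 in the pair labelled sarcoma, where 175 of 211 members lay above 0. For snRNAs the medians were -0.05, 0.06 and 0.70. For the Snord members they were 0.27, 0.20 and 0.28, with 21, 23 and 26 of the 32 members above 0. For scaRNAs they were -0.11, -0.22 and -0.15.

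**Figure D3:**
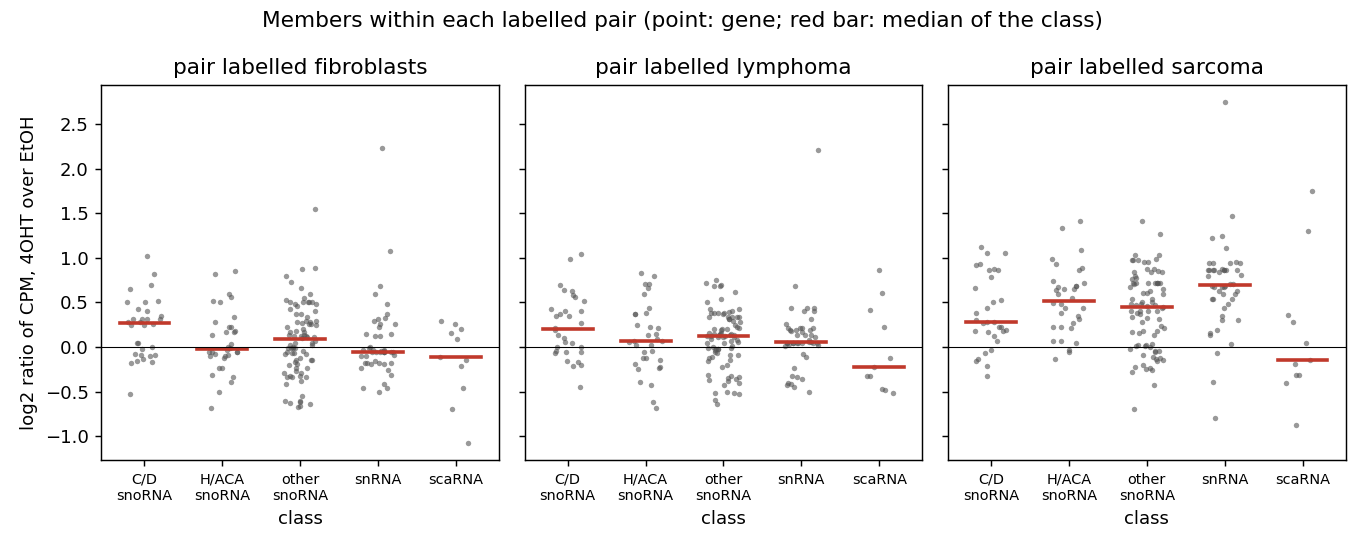
Log2 ratio of TMM-scaled CPM, 4OHT over EtOH, for each member (points) in the pairs labelled fibroblasts, lymphoma and sarcoma, by class, with the class median as a red bar. The snRNA median moves from -0.05 and 0.06 in the first 2 pairs to 0.70 in the pair labelled sarcoma, while the Snord medians are 0.27, 0.20 and 0.28.

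By class, edgeR called 17 of 48 snRNAs higher and 1 lower, beside 25.0% and 24.6% of all tested genes. Many snRNA genes are exact copies whose reads kallisto divides, so the 48 genes stand for 34 sequences. With identical sequences summed, an alternative added after the data were seen, 12 snRNAs were higher and 1 lower. Over all genes the summed fit called 4000 higher and 3957 lower. Without the pair labelled sarcoma only 2 snRNAs were called higher, Gm27995 and Gm24497, and 1 lower, Rnu5g. That fit called 21.8% of all genes higher and 20.9% lower.

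The U1 family comprised 16 members with 6 distinct sequences. Its summed CPM was 1844 and 1828 in the 4OHT and EtOH libraries labelled fibroblasts, 2416 and 2310 in those labelled lymphoma, and 4613 and 2761 in those labelled sarcoma. The pairs thus differed 1.01-, 1.05- and 1.67-fold. The 11 U2 members summed to 1510 and 1624, 2011 and 1713, and 3663 and 1951 CPM, which is 0.930-, 1.17- and 1.88-fold. In both families the ratio was highest in the pair labelled sarcoma.

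Single U1 and U2 members showed the same. Rnu1a1, which shares its sequence with 6 other members, had 124 and 129, 166 and 161, and 320 and 177 CPM in the 4OHT and EtOH libraries of the 3 pairs in the same order. Its edgeR log2 fold change was 0.29 ± 0.13 (SE), which did not pass the test (adjusted p = 0.0874). Rnu2-10, which has the same sequence as 3 other members, had 180 and 204, 238 and 206, and 455 and 238 CPM, with a log2 fold change of 0.33 ± 0.15 (edgeR adjusted p = 0.0854). The U1 variant Rnu1b1 passed at 0.32 ± 0.08 (edgeR adjusted p = 0.00756), and the abundant U1 members Gm22614 and Gm25890, 1 sequence at 2 loci, at 0.26 ± 0.08 (adjusted p = 0.0182). Without the pair labelled sarcoma these did not pass (adjusted p = 0.0517 and 0.121).

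The U5 family, at the heart of the splicing reaction, had 6 members that summed to 19.2 and 19.3, 20.6 and 23.0, and 34.0 and 20.6 CPM. All 6 lay above 0, and 1 of them, Gm23143, was called higher, beside 25.0% of all tested genes. Another, Rnu5g, was called lower without the pair labelled sarcoma, where 20.9% of all genes were. In the minor spliceosome, Rnu12 had 25.5 and 21.3, 27.4 and 29.0, and 46.9 and 29.4 CPM (edgeR log2 fold change 0.30 ± 0.11, adjusted p = 0.0345; 0.472 without the pair labelled sarcoma). Rnu11 had 2.34 and 2.42, 2.03 and 2.87, and 4.19 and 2.60 CPM and did not pass (edgeR adjusted p = 0.662). The ratios within the pair labelled sarcoma were 1.65 for U5, 1.61 for U11 and 1.60 for U12, close to that of U1. The other 13 snRNA members lay more than 10% of their length from any member with a U1, U2, U5, U11 or U12 symbol. No snRNA member carried a U4 or U6 symbol, so forms of these could not be recognised by this rule.

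One of these 13, Gm27995, had by far the largest change of any member. Its CPM was 3.29 and 0.702 in the pair labelled fibroblasts, 3.12 and 0.675 in the pair labelled lymphoma, and 3.76 and 0.558 in the pair labelled sarcoma. All 3 4OHT libraries lay above all 3 EtOH libraries, by 4.69-fold (95% Clopper-Pearson interval 2.87 to 8.01, counting error only), 4.62-fold (2.81 to 7.95) and 6.74-fold (4.19 to 11.3). The edgeR log2 fold change was 2.40 ± 0.19 (adjusted p = 1.04e-06). Gm27995 lies on chromosome 7 (104340090 to 104340189, minus strand) within Trim12c, a TRIM family gene, and within an exon of 2 of its counted transcripts. Trim12c itself changed by 2.78 ± 0.06 (edgeR adjusted p = 1.13e-11), and reads from the exon and from the small RNA cannot be told apart.
Gm27995: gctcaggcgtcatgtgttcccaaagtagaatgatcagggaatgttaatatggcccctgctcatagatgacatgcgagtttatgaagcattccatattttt

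U3, the box C/D RNA of ribosomal RNA processing, is typed as snoRNA without a Snord symbol. Its 6 members summed to 1182 and 1173 CPM in the pair labelled fibroblasts, 1786 and 1456 in the pair labelled lymphoma and 2951 and 1817 in the pair labelled sarcoma. Of the 6, 5 were called higher, beside 25.0% of all tested genes. They hold only 3 distinct sequences, so these calls are not separate from each other. Rnu3b1, 1 of 4 identical copies, had 214 and 215, 336 and 266, and 563 and 342 CPM (edgeR log2 fold change 0.35 ± 0.10, adjusted p = 0.0111). Without the pair labelled sarcoma its adjusted p was 0.101. A pair of annotated genes named Rnu3a overlap on chromosome 10 and share nearly all their bases, so the division of reads between them is uncertain. The more abundant had 311 and 307, 351 and 335, and 653 and 395 CPM.

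Of the 32 Snord members, edgeR called 5 higher and none lower, where it called 25.0% and 24.6% of all tested genes, so fewer Snord members than genes at large were called in either direction. Of the 32, 29 lay above 0. Without the pair labelled sarcoma 4 were called higher and none lower, beside 21.8% and 20.9% of all genes. DESeq2 called 2 higher and none lower, beside 15.9% and 15.6%. No Snord member was thus called lower in these fits. The class is short, with a median of 81 bases, and weakly covered: together its members held between 0.0147% and 0.0309% of counts.

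Snord12 rose in every pair. It had 5.09 and 3.12 CPM in the pair labelled fibroblasts, 5.30 and 2.67 in the pair labelled lymphoma and 4.77 and 2.76 in the pair labelled sarcoma. The 4OHT libraries did not overlap the EtOH libraries, and the library labelled sarcoma did not stand out. The edgeR log2 fold change was 0.82 ± 0.12 (adjusted p = 0.000137), and it was 0.84 without the pair labelled sarcoma.

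Zfas1, a noncoding RNA that hosts snoRNAs, was not among the tested genes. The other 2 members within it rose too. Gm23201 had 4.48 and 3.16, 3.72 and 2.57, and 4.05 and 3.21 CPM (edgeR log2 fold change 0.45 ± 0.12, adjusted p = 0.00855). Gm25878 had 6.17 and 3.34, 4.81 and 4.42, and 5.42 and 3.88 CPM (0.50 ± 0.14, edgeR adjusted p = 0.011). For each of the 3 the arms did not overlap. DESeq2 called Snord12 (adjusted p = 0.00198) but neither of the others (0.152 and 0.0827).

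Snord118, the U8 RNA, which acts in maturation of the large ribosomal subunit, had 8.11 and 6.53, 9.47 and 7.32, and 14.4 and 7.94 CPM. Its log2 fold change was 0.55 ± 0.11 (edgeR adjusted p = 0.00137) and 0.34 without the pair labelled sarcoma (adjusted p = 0.0184). Snord17 had 46.0 and 44.6, 79.4 and 48.9, and 135 and 64.7 CPM, with a log2 fold change of 0.64 ± 0.13 (edgeR adjusted p = 0.00194) and 0.39 without the pair labelled sarcoma. It did not pass without the block (edgeR adjusted p = 0.0698) or in DESeq2 (0.106). Its arms overlapped, since the 4OHT library labelled fibroblasts lay below 2 of the EtOH libraries. Snord83b (0.35 ± 0.11, edgeR adjusted p = 0.0211) and Snord15a (0.44 ± 0.15, adjusted p = 0.0321) were the remaining calls. Snord83b did not pass without the pair labelled fibroblasts (adjusted p = 0.178) or in DESeq2 (0.238), and Snord15a did not pass without the pair labelled sarcoma (0.48) or in DESeq2 (0.157).

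**Figure D4:**
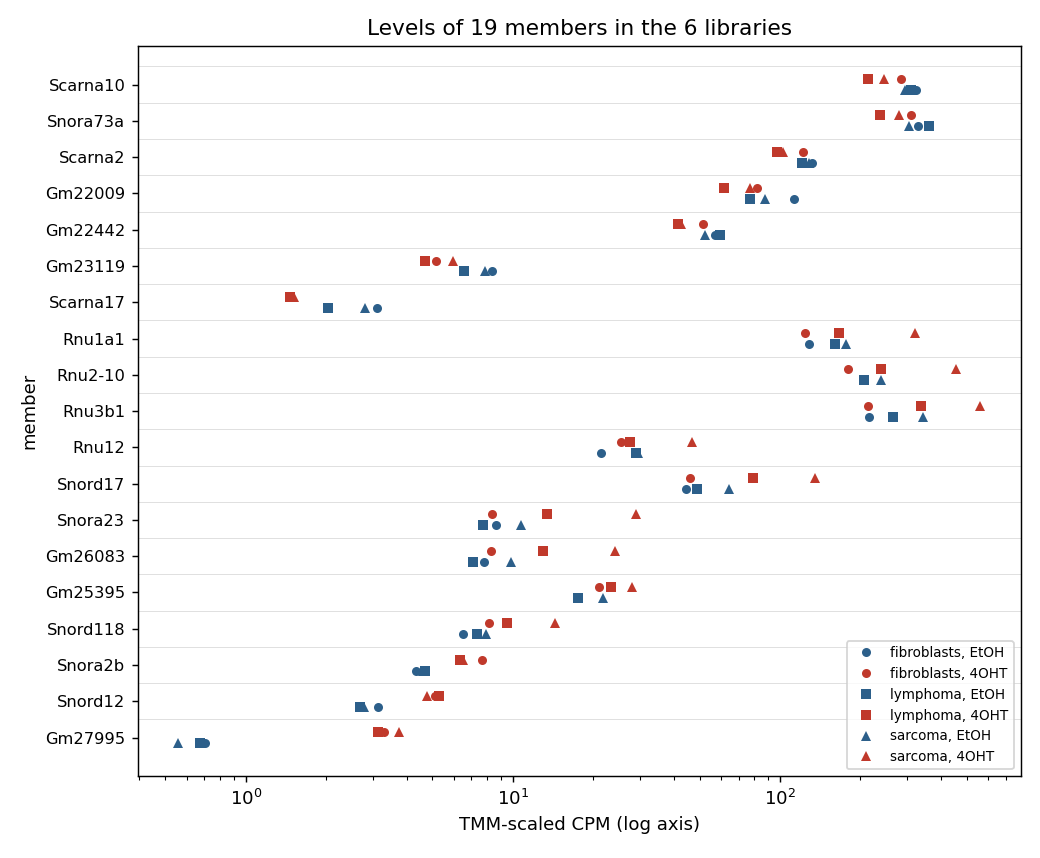
TMM-scaled CPM (log axis) of 19 members in the 6 libraries, with colour for the arm and shape for the labelled cell type. Snord12, Snora2b and Gm27995 separate the arms without the 4OHT library labelled sarcoma standing out for the first 2, whereas Rnu1a1, Rnu2-10, Rnu3b1 and Snora23 are high in that library, and Scarna10, Scarna2 and Gm22442 are lower under 4OHT.

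Of the 34 Snora members, edgeR called 11 higher and 1 lower, beside 25.0% and 24.6% of all tested genes. Without the pair labelled sarcoma 5 were higher and 4 lower, beside 21.8% and 20.9% of all genes. DESeq2 called 1 higher, Snora2b, and 0 lower, beside 15.9% and 15.6% of all genes. Snora2b had 7.67 and 4.35, 6.35 and 4.69, and 6.50 and 4.62 CPM, with no overlap between the arms. Its log2 fold change was 0.58 ± 0.11 (edgeR adjusted p = 0.000819) and 0.63 without the pair labelled sarcoma. The gene around it, Kansl2, a subunit of the NSL histone acetyltransferase complex, rose by 0.35 ± 0.04 (edgeR adjusted p = 2.68e-05).

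Snora23 had 8.35 and 8.67, 13.4 and 7.70, and 28.8 and 10.7 CPM. The pair labelled fibroblasts showed no rise and the pair labelled sarcoma a 2.68-fold one. The log2 fold change was 0.83 ± 0.19 (edgeR adjusted p = 0.00377), and 0.40 without the pair labelled sarcoma, which did not pass (adjusted p = 0.0893). Snora52, in the ribosomal protein gene Rplp2, had 2.51 and 1.76, 2.78 and 1.76, and 4.30 and 2.36 CPM. It rose by 0.70 ± 0.14 (edgeR adjusted p = 0.00172).

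Snora73a and Snora73b are copies of U17 within Snhg3 on the minus strand of chromosome 4 (132352775 to 132352979 and 132352322 to 132352526). They are 96.6% identical over 205 bases, with 7 differing bases, shown in capitals.
Snora73a: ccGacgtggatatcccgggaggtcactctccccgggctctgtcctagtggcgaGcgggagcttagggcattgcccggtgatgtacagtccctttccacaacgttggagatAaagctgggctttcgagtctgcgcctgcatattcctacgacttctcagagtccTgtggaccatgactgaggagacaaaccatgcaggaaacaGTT
Snora73b: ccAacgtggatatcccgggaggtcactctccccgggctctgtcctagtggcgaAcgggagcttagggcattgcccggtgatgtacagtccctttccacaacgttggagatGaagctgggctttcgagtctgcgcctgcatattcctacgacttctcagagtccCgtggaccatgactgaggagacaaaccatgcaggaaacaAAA

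Snora73a, which had the highest mean TPM of the Snora members, had 309 and 329, 237 and 363, and 278 and 303 CPM, a log2 fold change of -0.28 ± 0.08 (edgeR adjusted p = 0.0155). It did not pass without the pair labelled lymphoma (adjusted p = 0.18) or in DESeq2 (adjusted p = 0.208). Snora73b had 129 and 152, 166 and 158, and 281 and 176 CPM and did not pass (0.18 ± 0.12, edgeR adjusted p = 0.251). Kallisto shares reads between sequences this alike, and the difference between the copies was not tested. Snora74a, an abundant H/ACA RNA, had 124 and 133, 109 and 129, and 134 and 128 CPM (edgeR adjusted p = 0.186).

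Among the 11 scaRNAs, edgeR called 5 lower and 3 higher, beside 24.6% and 25.0% of all tested genes. The higher count was thus near the share over all genes. The 5 lower calls, Scarna2, Scarna17, Gm22009, Gm22442 and Gm23119, had the same sign in 3 of 3 pairs and were called again by DESeq2 and in each fit that left out 1 pair. On log2(TPM + 1), limma called only Scarna17 and Gm23119 lower. Scarna2, a guide of U2 modification, had 122 and 132, 97.4 and 121, and 103 and 128 CPM (-0.25 ± 0.05, edgeR adjusted p = 0.00148). Gm22009 had 81.8 and 113, 61.6 and 77.5, and 77.4 and 88.1 CPM (-0.33 ± 0.05, edgeR adjusted p = 0.000306). Gm22442 had 51.7 and 57.3, 41.5 and 59.6, and 42.5 and 52.6 CPM (-0.32 ± 0.06, edgeR adjusted p = 0.00109).

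The arms of Gm22442 did not overlap, and those of Scarna2 and Gm22009 did. Gm23119 had 5.16 and 8.36, 4.70 and 6.55, and 5.96 and 7.86 CPM (-0.52 ± 0.10, edgeR adjusted p = 0.0009). Scarna17 had 1.46 and 3.09, 1.47 and 2.03, and 1.52 and 2.79 CPM, which rest on 39 to 105 counts per library (-0.83 ± 0.17, edgeR adjusted p = 0.00183). The arms overlapped for neither of these.

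Scarna10, which is typed as snoRNA, behaved like these 5. It had 284 and 324, 214 and 310, and 246 and 295 CPM, below its partner in every pair and without overlap between the arms, and its log2 fold change was -0.33 ± 0.06 (edgeR adjusted p = 0.000828). It lies in Ncapd2, a condensin subunit gene, which fell by 0.38 on the log2 scale. Gm22442 lies in Chd3, a chromatin remodeller gene, which changed by -0.45 ± 0.04 (edgeR adjusted p = 3.42e-06). Gm22009, by contrast, lies in Kpna4, an importin gene, which rose by 0.34 ± 0.04 (edgeR adjusted p = 3.8e-05).

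Of the 3 scaRNAs called higher, Gm25395 had 21.1 and 17.6, 23.4 and 17.6, and 28.0 and 21.8 CPM (0.35 ± 0.06, edgeR adjusted p = 0.000468). It lies in Atg16l1, an autophagy gene, which rose by 0.57 ± 0.07. Scarna6, in the same gene, had 17.5 and 15.7, 16.4 and 17.8, and 22.4 and 18.5 CPM and did not pass (0.12 ± 0.08, edgeR adjusted p = 0.225). Gm26083 had 8.31 and 7.83, 13.0 and 7.12, and 24.2 and 9.85 CPM (0.83 ± 0.16, edgeR adjusted p = 0.00132), and lies within an exon of 2 counted Snhg20 transcripts. Its log2 fold change was 0.50 without the pair labelled sarcoma, and it did not pass in DESeq2 (adjusted p = 0.083). Gm22767 (0.86 ± 0.29, edgeR adjusted p = 0.026) did not pass without the pair labelled sarcoma (adjusted p = 0.452). Scarna13 (-0.06 ± 0.07, edgeR adjusted p = 0.523) and Gm25820 (0.19 ± 0.18, adjusted p = 0.421) did not pass.

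The calls that held under every alternative setting planned were few. Higher under all of them were Gm25395, Snord12, Gm26205, Gm27995, Snord118, Gm23946 and Snora2b, and lower were Scarna17 and Gm23119. Gm25395, Snord12, Gm26205, Gm23946 and Snora2b lie inside other genes. Whether their reads came from the small RNA or from unspliced RNA of those genes was not tested. Reads of Gm27995 cannot be told apart from those of the Trim12c exon around it. Gm26205, in the ribosomal protein gene Rpl6, had 5.19 and 3.65, 4.25 and 3.27, and 6.50 and 3.64 CPM. Gm23946, in Timm23, a gene of the mitochondrial import machinery, had 2.31 and 1.61, 3.31 and 2.06, and 6.39 and 2.66 CPM.

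Leaving out U3, 157 snoRNA and scaRNA members remained, and 147 of them lay inside another gene on the same strand, 126 in protein-coding and 21 in long noncoding genes. For 141 members in 93 genes the surrounding gene was tested. The log2 fold changes of member and gene had a Pearson r of 0.317 and a Spearman rho of 0.306 over the 141 members, a description only, since members of 1 gene are not independent and both values come from the same libraries. Member and gene both passed in the same direction for 22 and in opposite directions for 10. These counts stand beside 25.0% of all tested genes called higher and 24.6% lower, and 59 of the 211 members called higher and 10 lower. Whether they depart from those shares was not tested. Reads of unspliced RNA from the surrounding gene were not separated from those of the member.

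Ribosomal protein genes, counted here with Rack1, held 46 members in 26 genes. The genes had a median log2 fold change of -0.17, and 22 of the 26 were called lower and none higher, beside 24.6% and 25.0% of all tested genes. The members in ribosomal protein genes had a median of 0.26, with 40 of 46 above 0, 10 called higher and none lower. Over all 211 members the median was likewise 0.26, with 175 above 0, and the 10 higher calls of 46 were no larger a share than the 25.0% over all genes. Without the pair labelled sarcoma the median of these 46 was 0.19, with 36 above 0, 6 higher and 1 lower. That fit called 21.8% of all genes higher and 20.9% lower. Taf1d, which encodes a factor of ribosomal RNA transcription, held 8 members, of which 7 lay above 0. Of the 8, 3 were called higher, beside 25.0% of all tested genes. Taf1d itself rose by 0.21 ± 0.04 (edgeR adjusted p = 0.002).

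**Figure D5:**
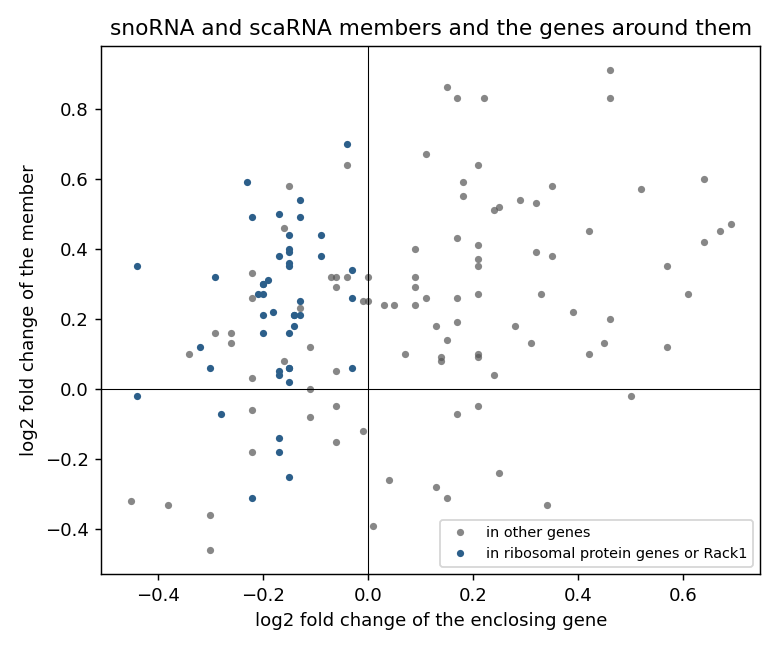
Log2 fold change of each snoRNA or scaRNA member (y axis) against that of the gene around it (x axis), with 1 point per member for the 141 members whose gene was tested. Members in ribosomal protein genes or Rack1 (blue) lie left of 0 on the x axis, where the median gene is at -0.17, and 40 of 46 lie above 0 on the y axis.

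Genes for the proteins that bind and process these RNAs were counted in fixed lists, to be read against the 25.0% of all tested genes that edgeR called higher and the 24.6% it called lower. Of the 4 box C/D core proteins, 3 were higher and none lower: Nop56 by 0.46 ± 0.04 (edgeR adjusted p = 3.53e-06), Nop58 by 0.41 ± 0.04 (6.81e-06) and the methyltransferase Fbl by 0.12 ± 0.04 (0.0348). Of the 4 H/ACA core proteins, 2 were higher, Nhp2 by 0.37 and the pseudouridine synthase Dkc1 by 0.22, and none lower. Of 11 snoRNP assembly factors, 6 were higher, led by the nucleolar phosphoproteins Nolc1 (0.66 ± 0.06) and Tcof1 (0.61 ± 0.05), and 1, Pih1d1, was lower. These lists had medians of 0.27, 0.08 and 0.12, beside 0.02 over all genes.

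Of 13 genes of the Cajal body and the SMN complex, which loads Sm proteins on snRNAs, 7 were higher and 1 lower, beside 25.0% and 24.6% of all tested genes. Gemin5, which recognises snRNAs, rose by 0.51 ± 0.04 (edgeR adjusted p = 1.06e-06), and Gemin8 changed by -0.72 ± 0.10 (adjusted p = 0.000109). Coil, the scaffold of Cajal bodies, did not pass (edgeR adjusted p = 0.685). Of 23 Sm and U snRNP protein genes 6 were higher and 6 lower. Of 12 LSm and U6-handling genes 3 were higher and 4 lower, and of 20 genes of snRNA transcription, Integrator and export 4 were higher and 3 lower. Both counts of the Sm list and the higher count of the LSm list were near the shares over all genes, and both counts of the last list were below them. In that list Tgs1, which makes the trimethyl cap, rose by 0.49 ± 0.06, and Snapc1, of the complex that binds snRNA promoters, by 0.40 ± 0.07.

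Of 16 genes of small RNA decay and trimming, 8 were higher and 2 lower, beside the same shares of all genes. Dbr1, which opens the intron lariats that release most snoRNAs, rose by 0.54 ± 0.06 (edgeR adjusted p = 1.08e-05), as did the exonuclease Xrn2 (0.50 ± 0.04) and the exosome subunit Exosc1 (0.54 ± 0.07). Parn, a deadenylase that trims H/ACA RNAs, changed by -0.24 ± 0.06 (edgeR adjusted p = 0.00353).

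Among 9 other short noncoding RNAs outside the 3 gene types, 1 was higher and 2 lower, beside 25.0% and 24.6% of all tested genes. Rn7sk, the 7SK RNA that restrains transcription elongation, had 25630 and 27303, 17710 and 27841, and 20125 and 24629 CPM (-0.34 ± 0.08, edgeR adjusted p = 0.00401). Terc, the telomerase RNA, an H/ACA RNA itself, changed by -0.29 ± 0.06 (edgeR adjusted p = 0.00203). The vault RNA Vaultrc5 had 4.92 and 4.70, 8.27 and 5.0, and 16.1 and 7.41 CPM (0.74 ± 0.15, edgeR adjusted p = 0.00182), and was highest in the 4OHT library labelled sarcoma, as the U1 and U2 members were. Rn7sk was not high in that library.

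At the edge of the rule, Snord58b and Gm26387 had 20 estimated counts in their lowest library and were members. Gm22455 and Snord69, with 19 in theirs, were not.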

How the data were processed

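Total RNA was measured in 6 libraries, 1 per labelled cell type and arm. Per the submitters' processing notes, the authors ran kallisto 0.43.0 with GRCm38, and each deposited file gave estimated counts and TPM per transcript. Which strand setting and which transcripts they used is not given in the sources used here. Of 76055 targets, 75049 were joined by identifier to GENCODE M21, and the 1006 others, with 0.393% to 0.410% of counts, were left out. Estimated counts were summed per gene and rounded. Deposited TPM values were summed for alternatives.

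All genes were fitted with edgeR 4.0.16 (two-sided quasi-likelihood test, TMM scaling, a low-count filter by arm with filterByExpr, p adjusted by Benjamini-Hochberg over 15933 genes, threshold 0.05) with the labelled cell type as a block. The fit had 2 residual and 9.23 prior degrees of freedom. An SE is the log2 fold change divided by the square root of F. CPM values are TMM-scaled. The pairing comes from the labelled cell type. The 2 libraries of a pair deviated from their arm means with correlations of -0.00935, 0.0983 and 0.0791. Nothing states that libraries came from separate cultures, so the spread behind the p-values may be technical. Intervals (95%, Clopper-Pearson) cover counting error only.

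Members and gene lists were chosen with earlier results of these data known. Members named were, per class, the 5 most abundant, the 6 most raised and the 6 most lowered among those past the threshold with 1 sign in 3 pairs, and every scaRNA. Snora73 copies aside, members named for U1, U2, U3, U11, U12 and Zfas1, and those that kept their calls, were chosen after their values were seen. Alternatives were DESeq2 1.42.0, limma 3.58.1 on log2(TPM + 1) and log2(TPM + 0.1), other scalings, no filter, no block, each pair left out, other shares and other count thresholds. R 4.3.3, Python 3.11.15, pandas 2.3.3, numpy 2.4.6, scipy 1.17.1 and edlib 1.3.9.post1 were used.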

Additional observations from a re-analysis of the deposited data

Results flagged for a closer look

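The direction of the arm difference in class shares was not the same in all labelled pairs. The log2 ratio of the snoRNA share, 4OHT over EtOH, was -0.04 in the pair labelled fibroblasts, 0.09 in the pair labelled lymphoma and 0.50 in the pair labelled sarcoma. For snRNAs it was -0.04, 0.15 and 0.79, and for all members together -0.04, 0.11 and 0.64. Each pair holds 1 library per arm, so the difference between pairs was not tested.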

How the results depend on the processing

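The count of members called higher under 4OHT was 59 with edgeR and the block, 25 with no replicate block and 7 with DESeq2, and 21 to 86 when 1 labelled pair was left out, with the lowest count without the pair labelled sarcoma. The count called lower was 10, with 7 to 16 when 1 pair was left out, 8 with no replicate block, and 2 with limma on log2(TPM + 1) and on log2(TPM + 0.1). Over all genes edgeR called 3742 higher and 3772 lower with no replicate block. With 1 pair left out it called 3256 to 3540 of all genes higher and 3185 to 3949 lower. A limit of 100 counts in each library left 97 members with 37 called higher and 8 lower, beside 25.0% and 24.6% of all tested genes.

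Over all genes, DESeq2 called 2541 higher and 2488 lower, and limma 2352 and 1552 on log2(TPM + 1) and 2401 and 1589 on log2(TPM + 0.1), beside 3981 and 3920 in edgeR. Over the 8 lists of partner genes, 39 were higher and 17 lower in edgeR, 24 and 8 in DESeq2, and 21 and 1 under either limma setting. The cause of these differences was not tested. The log2 ratio of mean shares kept its sign for each class under every setting run, and without the pair labelled sarcoma it was 0.03 for snoRNAs and 0.07 for snRNAs. Signs were compared for the scaRNAs and the members named for abundance or size of change. None of these that passed in edgeR changed sign under a setting run, while 5 that did not pass did (Scarna13, Snora73b, Snora78, Snord15b and Snord22). Members named on other grounds, such as Rnu5g and Rnu11, were not part of this count. Rnu5g had a positive log2 fold change with all pairs and was called lower without the pair labelled sarcoma. Short members rest on few counts, which limits what the fit can show for them.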
